A study of Mus musculus with 8 samples.

Results

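Immediate early genes were followed through RNAseq of GFP+ (mG+) cells, sorted by FACS, of WT mice and of mice with *Tert* knocked out in EC (KO). The group was fixed by name as *Fos*, *Fosb*, *Jun*, *Junb*, *Jund*, *Egr1*, *Atf3*, *Nr4a1*, *Ier2* and *Dusp1*, which are 10 of the 54532 genes of the count table. All 10 were detected in all 8 libraries. The WT mice were Tie2e-cre; TERT+/+; mTmG and the KO mice Tie2e-cre; TERTfl/fl; mTmG, so controls carried the same Cre and the same membrane reporter as the KO. In this reporter, cells in which Cre has acted, and their progeny, turn from membrane Tomato to membrane GFP, and Cre is driven here by a Tie2 promoter meant to act in EC. Tie2 promoters are also known to act in some blood cell lineages. All mice were 8 months old. Cells came from SAT of mice on high-fat diet (HFD) and from SAT, VAT and skeletal muscle of mice on chow, with 1 WT and 1 KO library in each of these 4 pairs. SAT is subcutaneous and VAT visceral adipose tissue. Whether several mice were pooled for a library is not given in the sources used here.

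Immediate early genes are switched on within minutes of a stimulus by transcription factors that are already present in the cell, without new protein synthesis. *Fos*, *Fosb*, *Jun*, *Junb* and *Jund* encode subunits of AP-1, a dimer of basic leucine zipper proteins, and *Egr1*, *Atf3* and *Nr4a1* encode a zinc finger factor, a stress-induced factor of the ATF/CREB family and an orphan nuclear receptor. *Ier2* encodes a short-lived nuclear protein, and *Dusp1* a phosphatase that switches off MAP kinases and so limits the response. In EC they are known to respond to growth factors, shear stress and inflammatory cytokines. They are also well known to be raised by enzymatic and mechanical dissociation of tissue, and the adipose tissue of this study was digested with collagenase and dispase before sorting.

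Libraries held between 6214269 and 18855772 counts. *Tert* itself had 114 counts in WT and 0 in KO for HFD SAT, 70 and 11 for chow SAT and 24 and 7 for muscle. In VAT the library labelled KO had 9 counts and WT 3, a direction opposite to the labels that rests on few counts. After TMM scaling (counts scaled to the library size, in units of 1e6, CPM) these were 0.658 and 0.333 CPM. The KO libraries of chow SAT and muscle were at 0.682 and 0.516 CPM. The 10 EC markers checked were above 3 counts in all 8 libraries, but their summed level ranged from 262 to 2360 CPM. In SAT the EC markers summed to 262 to 661 CPM. Markers of other cells stood beside them. B cell markers summed to between 999 and 1760 CPM in SAT against 107 to 775 elsewhere. Stromal markers summed to between 725 and 3300 CPM in SAT against 577 to 2140 elsewhere. Macrophage markers summed to 9140 and 9020 CPM in VAT against 188 to 867 elsewhere, neutrophil markers to 26300 and 30200 in muscle against 55.6 to 264 elsewhere, and T cell markers to between 1320 and 3250 in SAT against 180 to 590 elsewhere. In such bulk samples, fewer cells of a type and less RNA per cell cannot be told apart. The chow SAT WT library stood apart from the others. It had 4827 counts (299 CPM) of the nuclear noncoding RNA *Malat1*, whereas its KO partner had 96834 (6010 CPM) and the other libraries 2180 to 5190 CPM. In the tissue and diet comparisons, estimates that moved most when it was left out are also given without it. The HFD SAT WT library, the smallest, differed in another way. *Gm26917* took 9.72% of its counts (87400 CPM, against 5980 in its KO partner and 2110 to 11400 elsewhere). No fit left out the HFD SAT WT library alone.

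The members are short genes spread over 8 chromosomes, and all except *Atf3* (47744 bases) and *Nr4a1* (20527 bases) span at most 7356 bases. *Jun*, *Junb*, *Jund* and *Ier2* have 1 exon in their protein-coding transcripts in GENCODE M21, on the build of the count table, GRCm38. *Junb* (chromosome 8, 84974484 to 84978718) and *Ier2* (chromosome 8, 84661331 to 84662852) lie 311631 bases apart. *Junb* overlaps *Prdx2* on the opposite strand, which had 478 to 2483 counts against at least 13799 for *Junb*. The other overlapping genes, antisense or small RNAs at *Jun*, *Jund* and *Atf3*, had at most 110 counts. Whether counting used strand is not given in the sources used here, so reads of *Junb* and *Prdx2* may not be fully separated.

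The 250 bases before the start site were taken from RefSeq (GRCm38.p6), which had an entry for 8 of the 10 members and none used here for *Egr1* and *Ier2*. They were searched on both strands for the letters TGACG, the core of the cyclic AMP response element (CRE) that factors of the CREB/ATF family bind. The core was in 6 of 8 member windows, against 17.8% of all 32851 windows. It was in *Fosb*, *Fos*, *Junb*, *Nr4a1*, *Dusp1* and *Atf3*, and not in the windows of *Jun* and *Jund*. The full palindrome TGACGTCA, which contains the core, was in 1 of 8 (*Dusp1*) and 1.55% of all. The AP-1 site TGACTCA was in 0 of 8 and 4.46% of all, and the CArG box bound by serum response factor in 0 of 8 and 1.47% of all. These matches describe letters within the window and nothing beyond it. The RefSeq start used for *Jund* lies 1210 bases before the *Jund* gene of the count table, and those used for *Atf3* and *Nr4a1* lie 34706 and 12577 bases inside their genes, so the values of these members describe the windows at those starts. GC content was between 47.6% (*Jund*) and 74.4% (*Nr4a1*) in member windows, with a median of 52.4% over all windows. Windows of 4 members are shown, since *Fosb* and *Nr4a1* differed most between the chow SAT libraries while *Fos* and *Dusp1* did not. They are written 5′ to 3′ on the gene's strand, with the core in capitals (CGTCA where it is on the opposite strand), and stop before the first base that GENCODE places in an exon.

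*Fosb*, chr7:19310052-19310295, minus strand, with the core at base −60 from the start: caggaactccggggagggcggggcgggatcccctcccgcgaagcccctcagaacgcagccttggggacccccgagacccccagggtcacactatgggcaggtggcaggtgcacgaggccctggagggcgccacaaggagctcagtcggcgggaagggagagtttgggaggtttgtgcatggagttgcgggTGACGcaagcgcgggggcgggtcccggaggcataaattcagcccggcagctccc

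*Nr4a1*, chr15:101266596-101266845, plus strand, within the longer of its transcripts, with 4 cores, all on the opposite strand: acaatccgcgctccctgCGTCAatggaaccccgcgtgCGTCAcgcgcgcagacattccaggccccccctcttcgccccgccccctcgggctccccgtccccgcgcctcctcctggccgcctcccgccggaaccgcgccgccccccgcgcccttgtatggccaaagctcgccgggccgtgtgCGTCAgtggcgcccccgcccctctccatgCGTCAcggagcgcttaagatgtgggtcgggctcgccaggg

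*Fos*, chr12:85473640-85473889, plus strand, with cores at bases −129 and −66 from the start: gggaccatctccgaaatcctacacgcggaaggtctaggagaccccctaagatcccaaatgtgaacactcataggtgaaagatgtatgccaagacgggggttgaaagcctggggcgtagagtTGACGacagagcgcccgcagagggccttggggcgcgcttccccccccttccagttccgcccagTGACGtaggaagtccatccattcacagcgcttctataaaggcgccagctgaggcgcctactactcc

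*Dusp1*, chr17:26508520-26508722, minus strand, with 1 core alone and a full palindrome at base −143 from the start: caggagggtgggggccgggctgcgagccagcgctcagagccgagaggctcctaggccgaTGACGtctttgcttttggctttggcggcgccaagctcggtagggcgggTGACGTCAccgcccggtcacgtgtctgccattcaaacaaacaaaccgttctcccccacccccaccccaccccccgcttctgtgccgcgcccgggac

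Together the members took 0.805% of the counts of the WT library and 0.872% of the KO library in HFD SAT, 0.472% and 1.04% in chow SAT, 1.24% and 1.40% in VAT, and 0.690% and 0.746% in muscle. The share was thus lowest in the chow SAT WT library and highest in the pair of VAT libraries. Per kb of exon length, the median level over the 8 libraries was highest for *Junb* at 876 CPM per kb. *Fos* followed at 413, *Nr4a1* at 365, *Dusp1* at 280, *Ier2* at 255, *Jun* at 244, *Jund* at 214, *Fosb* at 125, *Atf3* at 109 and *Egr1* at 91.4.

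Of the Fos subunits, *Fos* varied little and *Fosb* widely. *Fos* was at 795 CPM in WT and 1001 in KO in HFD SAT, 908 and 916 in chow SAT, 1264 and 1313 in VAT, and 944 and 1023 in muscle, so that its highest library was 1.65 times its lowest. *Fosb* was at 904 and 656 CPM in HFD SAT, 213 and 1667 in chow SAT, 2548 and 2628 in VAT, and 534 and 354 in muscle. Its highest library was 12.4 times its lowest, and still 7.43 times without the chow SAT WT library. The VAT libraries were above all others for both genes, whereas the chow SAT libraries bracketed those of HFD SAT and of muscle for *Fosb*.

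The Jun subunits kept within a factor of 3. *Jun* was at 829 CPM in WT and 992 in KO in HFD SAT, 537 and 579 in chow SAT, 719 and 873 in VAT, and 730 and 922 in muscle, and was lowest in the pair from chow SAT. *Junb*, the most abundant member, was at 1995 and 2035 CPM in HFD SAT, 1751 and 2863 in chow SAT, 2594 and 3491 in VAT, and 1759 and 1500 in muscle. *Jund*, usually the most steadily expressed Jun subunit, was at 424 and 321 CPM in HFD SAT, 289 and 394 in chow SAT, 443 and 683 in VAT, and 297 and 254 in muscle. *Junb* and *Jund* were highest in the VAT library labelled KO and lowest in the muscle KO library.

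*Egr1* and *Atf3* were high in VAT, while *Nr4a1* was not set apart there. *Egr1* was at 425 CPM in WT and 394 in KO in HFD SAT, 267 and 726 in chow SAT, 1274 and 1175 in VAT, and 346 and 316 in muscle. *Atf3* was at 112 and 101 CPM in HFD SAT, 47.6 and 242 in chow SAT, 914 and 1025 in VAT, and 263 and 229 in muscle. *Atf3* had the widest range of the 10, 21.5 times from lowest to highest library and 10.2 times without the chow SAT WT library. *Nr4a1* was at 927 and 1154 CPM in HFD SAT, 296 and 1881 in chow SAT, 1274 and 1336 in VAT, and 1291 and 1360 in muscle. Its lowest and its highest library were thus the chow SAT pair, and without the WT library of that pair its range shrank from 6.35 to 2.03 times.

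The remaining members were *Ier2* and *Dusp1*. *Ier2* was at 379 CPM in WT and 287 in KO in HFD SAT, 458 and 492 in chow SAT, 362 and 395 in VAT, and 419 and 382 in muscle. It was highest in the pair from chow SAT, where *Jun* was lowest. *Dusp1* was at 447 and 549 CPM in HFD SAT, 740 and 623 in chow SAT, 1517 and 1756 in VAT, and 783 and 773 in muscle. It was highest in the pair from VAT and lowest in that from HFD SAT.

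**Figure D1:**
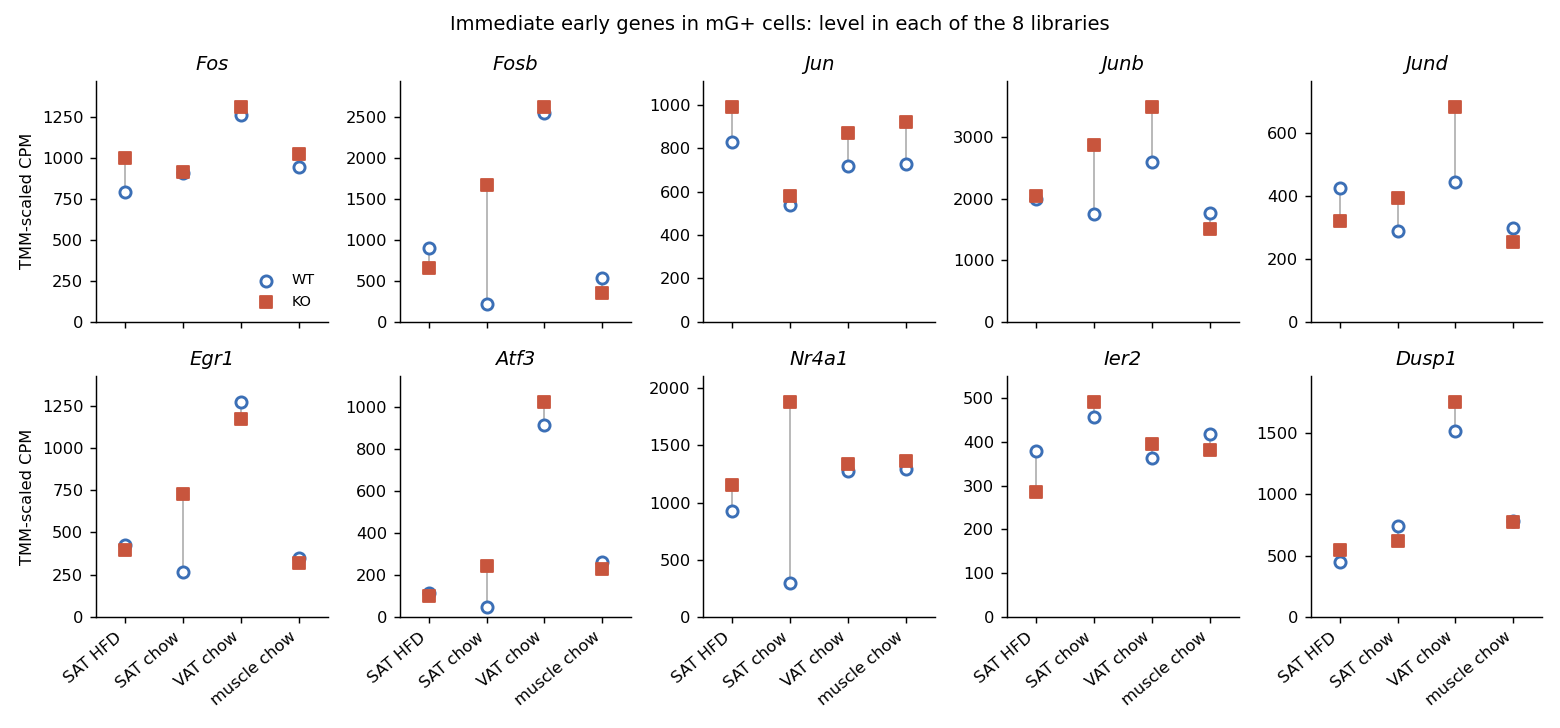
TMM-scaled CPM (vertical axes, each from 0) of the 10 immediate early genes in WT (open circles) and KO (filled squares) libraries of the 4 pairs, 1 library per point, with a line joining each pair. *Fosb*, *Egr1*, *Atf3* and *Dusp1* are highest in VAT, and the chow SAT WT library lies far below its KO partner for *Fosb*, *Egr1*, *Atf3* and *Nr4a1*.

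The ratio of members within a library does not depend on scaling. Per unit of length, *Fosb* stood at 0.429 of *Fos* in WT and 0.247 in KO in HFD SAT, 0.0883 and 0.686 in chow SAT, 0.760 and 0.754 in VAT, and 0.213 and 0.130 in muscle. The chow SAT KO library was therefore near the VAT libraries in this balance of the Fos subunits, and its WT partner was below all others. The *Nr4a1* to *Fos* ratio per length was 0.219 in the chow SAT WT library and 1.38 in its KO partner, against 0.676 to 0.916 in the other 6. The *Atf3* to *Jun* ratio per length was 1.88 and 1.74 in VAT, and between 0.131 and 0.619 elsewhere.

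Over the 8 libraries, log2 CPM of *Fosb* and *Egr1* moved most alike, with Pearson's r of 0.962, followed by *Fos* and *Dusp1* at 0.932 and *Junb* and *Jund* at 0.910. *Jun* and *Ier2* moved oppositely, at −0.818. These values are descriptions over 8 libraries of different tissues that share their depth and makeup.

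To ask how the members differ between tissues, the WT and the KO library of a tissue and diet served as its 2 libraries in an edgeR quasi-likelihood fit over all 8 libraries and 16971 genes, with genotype as a covariate and Benjamini-Hochberg adjustment over all genes. The spread then includes any genotype effect that differs between tissues. The comparisons share libraries, chow SAT entering 3 of the 4, and are given side by side.

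In VAT against chow SAT, *Atf3* rose and the other 9 members did not pass. *Atf3* was 2.90 higher on the log2 scale (SE 0.652, 7.47-fold, 2 libraries each, edgeR adjusted p = 0.0469). It was higher in both VAT libraries than in either chow SAT library. The adjusted p was close to the threshold, ranged from 1.7e-08 to 0.0606 over 9 alternatives, and passed it in 7 of them. It missed with library totals as the scaling (0.0573) and without the HFD SAT pair (0.0606). *Egr1* was 1.37 higher (SE 0.479, edgeR adjusted p = 0.158) and *Dusp1* 1.26 higher (SE 0.356, edgeR adjusted p = 0.0907). *Fosb* was 1.61 higher with an SE of 0.828 (edgeR adjusted p = 0.322). Without the chow SAT WT library, which leaves chow SAT with 1 library assumed to vary like the rest, *Dusp1* also passed (1.64, SE 0.249, edgeR adjusted p = 0.0183), as did 5.52% of all genes. *Atf3* still passed without it, at 2.14 (SE 0.247, edgeR adjusted p = 0.00913), whereas *Egr1* moved to 0.86 (SE 0.227) and *Fosb* to 0.64 (SE 0.281) and did not pass.

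Thus 1 of 10 members passed in VAT against chow SAT, against 5.0% of all genes, and 3 of 10 by DESeq2, against 14.0%. The libraries of the 2 conditions did not overlap for 8 of 10 members, 7 of them higher in VAT, against 56.6% of all genes. The median member was 0.63 higher in VAT on the log2 scale, and the median of all genes −0.13. *Ier2* was the only member with a lower mean in VAT, at −0.33 (SE 0.323, edgeR adjusted p = 0.622). The summed macrophage markers also differed, at 9140 and 9020 CPM in VAT against 867 and 442 in chow SAT, and their part in the *Atf3* difference was not tested.

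Muscle was below VAT for 7 of the 10 members, although no member passed with all libraries. *Fosb* was lower by 2.50 (SE 0.822, edgeR adjusted p = 0.216), *Atf3* by 1.95 (SE 0.617, edgeR adjusted p = 0.199) and *Egr1* by 1.89 (SE 0.478, edgeR adjusted p = 0.105) on the log2 scale. *Dusp1* was lower by 1.07 (SE 0.354, edgeR adjusted p = 0.217) and *Jund* by 1.01 (SE 0.378, edgeR adjusted p = 0.289). The number with an adjusted p under 0.05 was 0 of 10 by edgeR and 4 of 10 by DESeq2, and 5 of 10 had an unadjusted edgeR p under 0.05. Of all genes, 2.02% passed by edgeR, 7.32% passed by DESeq2 and 12.8% had an unadjusted edgeR p under 0.05.

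Neither VAT nor muscle libraries changed when the chow SAT WT library was left out. The scaling, the genes tested, the genotype term and the shared estimate of the spread were worked out anew without it. Then 4 of 10 members passed, all lower in muscle, while the share of all genes that passed went from 2.02% to 7.43%. They were *Fosb* (−2.63, SE 0.229, edgeR adjusted p = 0.00238), *Egr1* (−1.94, SE 0.177, edgeR adjusted p = 0.00269), *Atf3* (−2.03, SE 0.183, edgeR adjusted p = 0.00263) and *Dusp1* (−1.12, SE 0.183, edgeR adjusted p = 0.0178). Leaving out the whole chow SAT pair also gave 4 of 10, against 7.49% of all genes. The muscle and VAT libraries did not overlap for 7 of 10 members, all lower in muscle, against 62.0% of all genes. The median member was −0.94 and the median of all genes 0.06. *Jun*, *Nr4a1* and *Ier2* had mean differences of 0.05, 0.02 and 0.08 with SEs of 0.331, 0.634 and 0.323, and for *Jun* and *Nr4a1* the sign turned with DESeq2's size factors (−0.01 and −0.05). Neutrophil markers were high in muscle and macrophage markers in VAT, and their part in these values was not tested. The study's methods describe digestion of adipose tissue and none of muscle. A difference in preparation therefore cannot be told apart from one of tissue wherever muscle is compared with adipose tissue.

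Muscle against chow SAT, which shares libraries with both comparisons above, gave 0 of 10 members by edgeR and by DESeq2. It also gave 0 of 10 at an unadjusted edgeR p under 0.05. Of all genes, 1.27% passed by edgeR, 5.97% passed by DESeq2 and 11.5% had an unadjusted edgeR p under 0.05. Estimates lay between −0.90 for *Fosb* (SE 0.843) and 0.95 for *Atf3* (SE 0.625), with a median of −0.07 against −0.11 for all genes. Libraries did not overlap for 4 of 10 members, against 44.1% of all genes. *Fos*, *Jun* and *Dusp1* were higher in both muscle libraries, and *Ier2* lower. Without the chow SAT WT library, *Fosb* passed (−1.99, SE 0.273, edgeR adjusted p = 0.0275), against 1.95% of all genes, and *Atf3* went to 0.10 (SE 0.229).

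HFD SAT against chow SAT asked how diet relates to the members. It gave 0 of 10 by edgeR and by DESeq2, with 0 of 10 at an unadjusted edgeR p under 0.05. Of all 16971 genes, 0% passed by edgeR, 1577 had an unadjusted p under 0.05, and 355 passed by DESeq2. *Jun* came nearest, at 0.70 higher on HFD (SE 0.332, 1.62-fold, edgeR adjusted p = 0.569), and both HFD libraries were above both chow libraries. *Ier2* (−0.52, SE 0.324) and *Dusp1* (−0.46, SE 0.351) were lower in both HFD libraries. Non-overlap thus held for 3 of 10 members, against 33.6% of all genes. *Fosb*, *Egr1*, *Atf3* and *Nr4a1* had SEs between 0.471 and 0.832, and for each of them the chow libraries lay on either side of both HFD libraries. Without the chow SAT WT library, *Fosb* went from −0.09 to −1.13 (SE 0.273), *Atf3* from −0.26 to −1.06 (SE 0.225), *Egr1* from −0.21 to −0.73 (SE 0.217) and *Nr4a1* from 0.18 to −0.63 (SE 0.237). *Dusp1* went from −0.46 to −0.09 (SE 0.232) and *Fos* from −0.03 to 0.20 (SE 0.24), and 0 of 10 passed by edgeR. The median member with all libraries was −0.13 and the median of all genes −0.32.

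**Figure D2:**
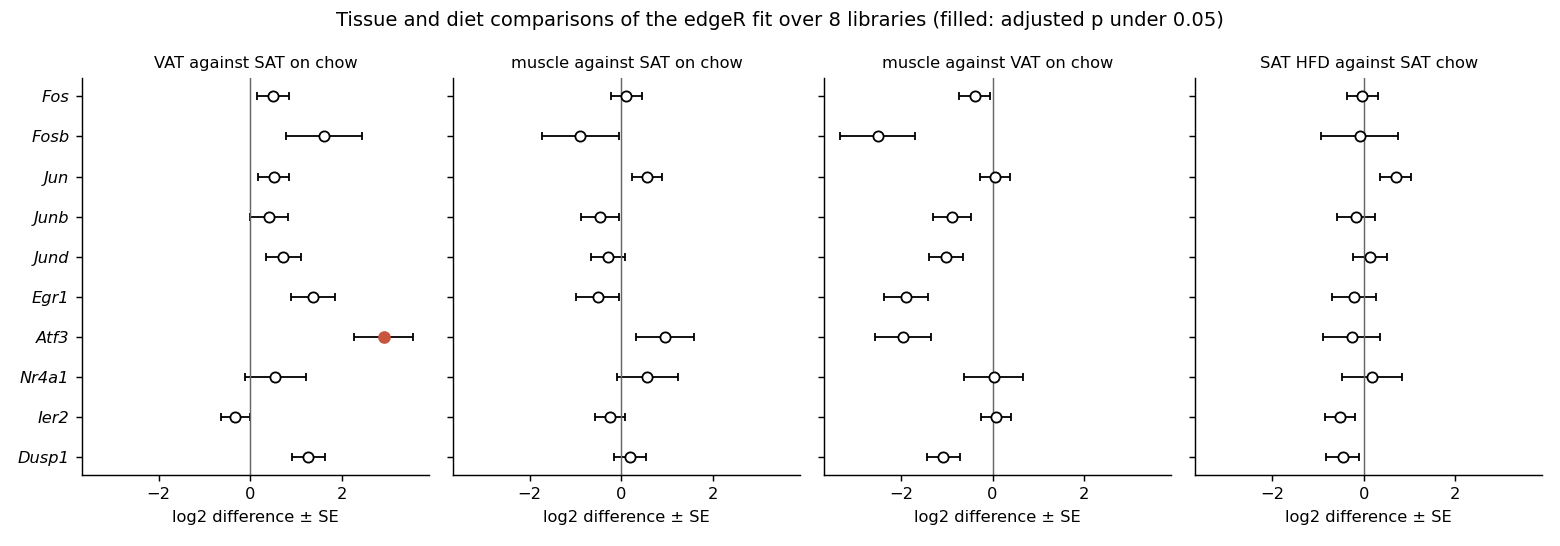
Log2 difference of each member (horizontal axis, with its SE as bars) in the 4 tissue and diet comparisons of the edgeR fit over 8 libraries, 2 libraries per condition. *Atf3* in VAT against chow SAT, at 2.90, is the only filled point, and *Fosb*, *Egr1*, *Atf3*, *Jund* and *Dusp1* lie below −1 in muscle against VAT.

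Within a pair there is 1 library per genotype, so KO over WT describes those 2 libraries and has no test. Each log2 ratio (prior count 0.5) carries an exact conditional binomial 95% interval, which covers counting error only. A member was called when this interval lay wholly beyond 2-fold. The choice of scaling moves all ratios of a pair together: with library totals the median of all genes went from 0.003 to 0.228 in chow SAT and from 0.00079 to 0.162 in muscle.

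In chow SAT, 4 of 10 members were called higher in KO, against 19.1% of all genes, and 0 of 10 lower, against 11.5%. *Fosb* had 3437 counts in WT and 26880 in KO, a log2 ratio of 2.97 (interval 2.92 to 3.02, 7.84-fold). *Nr4a1* had 4790 and 30340 counts, at 2.67 (2.62 to 2.71, 6.35-fold). *Atf3* had 769 and 3906 counts, at 2.35 (2.24 to 2.46, 5.09-fold), and *Egr1* 4310 and 11707, at 1.44 (1.39 to 1.5, 2.72-fold). They encode an AP-1 subunit, a nuclear receptor, an ATF/CREB factor and a zinc finger factor.

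The other AP-1 subunits differed less in this pair. *Junb* had a log2 ratio of 0.71 (0.69 to 0.73) and *Jund* of 0.44 (0.39 to 0.50), whereas *Jun* was at 0.11 and *Ier2* at 0.10. *Fos* had 14668 counts in WT and 14763 in KO, at 0.01 (−0.02 to 0.05), next to the 7.84-fold of *Fosb*. *Dusp1* was the single member below, at −0.25 (−0.29 to −0.21). The median member was 0.58 and the median of all genes 0.003. In this pair the ratio also followed gene length, taken as summed exon length and not as span. Genes as long as *Ier2* had a median of −0.71 and genes as long as *Fosb* one of 0.01. With the median of genes of like length subtracted, the median member became 0.91, *Junb* 1.01, *Fos* 0.56 and *Dusp1* 0.19. *Malat1* (299 against 6010 CPM), stromal markers (725 against 3300 CPM) and T cell markers (3250 against 1320 CPM) differed between the same libraries, and their part in the members' values was not tested.

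In HFD SAT, 0 of 10 members were called in either direction, against 12.9% of all genes higher and 10.9% lower. Log2 ratios lay between −0.46 for *Fosb* (−0.51 to −0.42) and 0.33 for *Fos* (0.29 to 0.38). *Nr4a1*, *Dusp1* and *Jun* were above 0 and *Jund* and *Ier2* below under all 3 scalings (TMM, DESeq2 size factors and library totals), whereas *Junb*, *Egr1* and *Atf3* lay within 0.15 of 0, and whether their interval spanned 0 depended on the scaling. The Fos subunits thus stood at opposite ends of the group here. *Gm26917* (87400 CPM in WT against 5980 in KO) differed between the same libraries, and its part in these values was not tested.

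In VAT the few *Tert* counts ran opposite to the labels. Here 0 of 10 members were called either way, against 2.40% of all genes higher and 2.09% lower in the library labelled KO. The largest ratio was that of *Jund* at 0.62 (0.57 to 0.68), followed by *Junb* at 0.43 (0.41 to 0.45) and *Jun* at 0.28 (0.24 to 0.32), so the Jun subunits came first. *Egr1* was at −0.12 (−0.15 to −0.08). *Fos*, *Fosb* and *Nr4a1* were at 0.06, 0.04 and 0.07, and their intervals spanned 0 with DESeq2's size factors.

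In muscle, 0 of 10 members were called either way, against 2.76% of all genes higher and 2.01% lower in KO. Log2 ratios ran from −0.59 for *Fosb* (−0.64 to −0.54) to 0.34 for *Jun* (0.30 to 0.37). *Fosb*, *Junb* and *Jund* were below 0 and *Fos*, *Jun* and *Nr4a1* above under all 3 scalings. *Dusp1* was at −0.02 (−0.06 to 0.02), and at 0.14 with library totals.

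**Figure D3:**
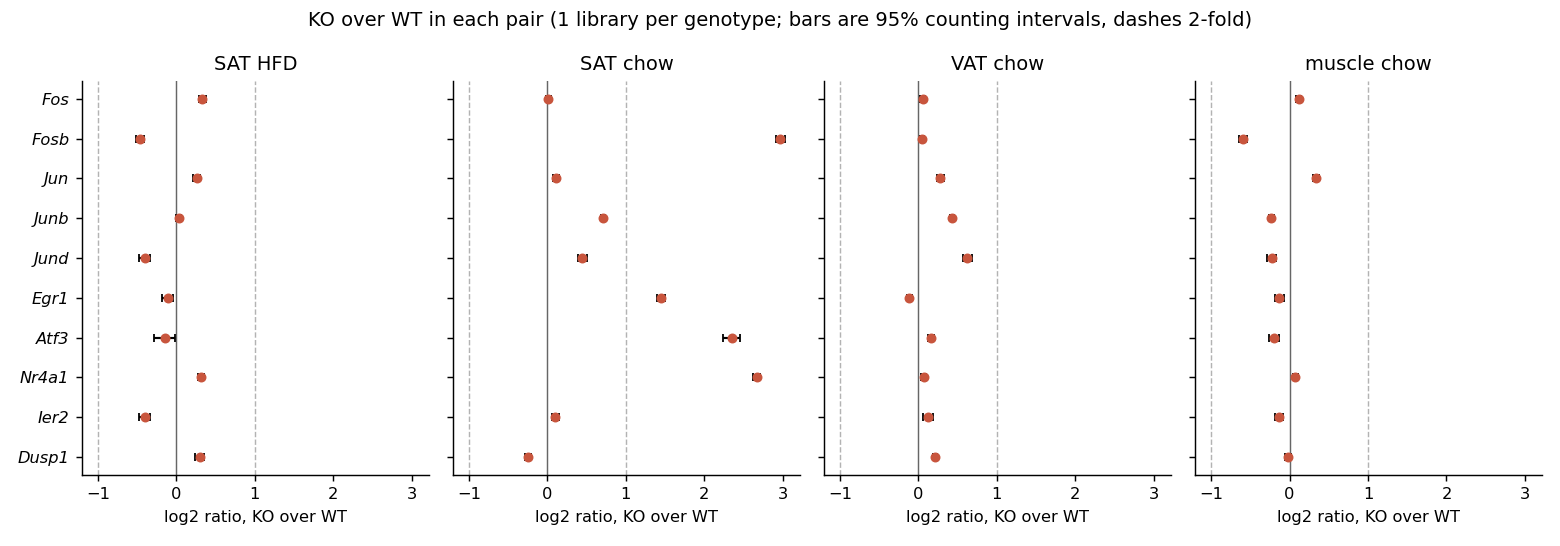
Log2 ratio of KO over WT (horizontal axis) of each member in the 4 pairs, with exact 95% counting intervals as bars and dashed lines at 2-fold, 1 library per genotype. *Fosb*, *Nr4a1*, *Atf3* and *Egr1* lie beyond 2-fold in chow SAT, and in the other 3 pairs all 10 members lie between −0.59 and 0.62.

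Across the 4 pairs, the replicated comparison of KO with WT (4 libraries each, tissue and diet as block) gave 0 of 10 members by edgeR at an adjusted p under 0.05, 0 of 10 at an unadjusted p under 0.05 and 0 of 10 by DESeq2. The VAT library labelled KO counted as KO here, and without the VAT pair 0 of 10 passed as well. Among all genes, 0.00589% passed by edgeR and 1.63% had an unadjusted edgeR p under 0.05. The number by DESeq2 is given below, with the dependence on processing. *Nr4a1* had the largest estimate, 0.73 higher in KO (SE 0.477, 1.65-fold, edgeR adjusted p = 0.9996). It was above WT in 4 of 4 pairs, but in VAT by 0.07 only, with an interval that spanned 0 with DESeq2's size factors. *Atf3* was at 0.49 (SE 0.446) and *Fosb* at 0.37 (SE 0.603), with the sign of each set by the chow SAT pair. Without that pair *Nr4a1* was at 0.15, *Atf3* at −0.06, *Fosb* at −0.34 and *Egr1* at −0.12. *Jun* had 0.25 (SE 0.234) with the pair and was above WT in 4 of 4 pairs. The share of all genes above WT in 4 of 4 pairs is not given here. Estimates were positive for 9 of 10 members with all pairs and for 5 of 10 without chow SAT, and the median member fell from 0.24 to 0.03. For *Ier2* the estimate of −0.08 turned to 0.04 with library totals.

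Other genes of the same response were read from 3 lists, chosen, like the members, with earlier results of these data known. Of 33 further immediate early genes, in chow SAT 14 were called higher in KO and 0 lower, against 19.1% and 11.5% of all genes, with a median log2 ratio of 0.84. *Nr4a3*, the paralog of *Nr4a1*, had 346 counts in WT and 31621 in KO (6.52, 91.4-fold), and *Fosl2*, a further Fos subunit, 900 and 29697 (5.05, 33.1-fold). *Nr4a2* (3.95, 15.4-fold) and *Sik1*, a kinase induced by cyclic AMP (3.19, 9.15-fold), followed. The KO library of this pair had 1960 CPM of *Nr4a3*, above the 983 and 1050 CPM of VAT, and the WT library 21.4 CPM, below the next lowest of 342 CPM. For *Fosl2* the KO library, at 1840 CPM, lay just under the 1950 and 1960 CPM of VAT, and the WT library had 55.7 CPM, below the next lowest of 530 CPM. In the other pairs, 1 of 32 further immediate early genes was called in HFD SAT (*Ctgf*, higher), 0 of 31 in VAT and 0 of 32 in muscle. The shares of all genes called in these pairs, given above with the members, also hold for the lists below.

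The list of 17 factors that act upstream of these genes held ERK, JNK and p38 kinases, SRF, its cofactors and CREB/ATF factors. In chow SAT 2 were called higher in KO and 1 lower, against 19.1% and 11.5% of all genes, with a median of −0.13. *Elk4*, a partner of SRF, was at 2.39 and *Mkl2*, an SRF coactivator, at 1.77, while *Mapk3*, which encodes ERK1, was at −1.40. In HFD SAT *Mapk7*, which encodes ERK5, was called lower (−1.43), and in VAT and in muscle 0 of 17 were called. In the fit across pairs and in the 4 tissue and diet comparisons 0 of 17 passed by edgeR.

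Of 15 genes of the dissociation and heat shock response, 14 were measured in chow SAT. There 1 was called higher in KO and 2 lower, against 19.1% and 11.5% of all genes. *Mt1*, a metallothionein, was at 2.05, and the chaperones *Hspe1* and *Hspa8* were at −1.36 and −1.12. *Hspe1* and *Hspa8* lay opposite to *Fosb* and *Nr4a1* in that pair, whereas the chaperone *Hsph1* was at 0.91. Of the 14 genes measured, 7 had an interval above 0 and 6 below, with a median of 0.23. Their relation to the members was not tested. None of the 14 or 15 genes measured was called in the other 3 pairs, and 0 of 14 passed by edgeR in the fit across pairs and in HFD against chow SAT. In VAT against chow SAT, 4 of 14 tested rose and 1 fell by edgeR, against 5.0% of all genes passing. Those that rose were *Mt1* (3.60, SE 0.633, edgeR adjusted p = 0.0211), *Cebpb* (2.17, SE 0.356, edgeR adjusted p = 0.0163), *Cebpd* (2.10, SE 0.357, edgeR adjusted p = 0.0187) and *Hspb1*, a small chaperone (1.61, SE 0.364, edgeR adjusted p = 0.0475). *Hspe1* fell (−1.97, SE 0.396, edgeR adjusted p = 0.0329). *Hspb1* falls outside the rule for named genes and was named after its value was seen.

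*Hspa1a*, the inducible HSP70, was at 201 and 187 CPM in VAT, where *Fosb*, *Egr1*, *Atf3* and *Dusp1* were highest, against 983 and 1510 in muscle, 1470 and 1680 in HFD SAT and 269 and 227 in chow SAT. It rose in muscle against VAT (2.67, SE 0.394, edgeR adjusted p = 0.0173), as did *Hspa1b* (3.57, SE 0.473, edgeR adjusted p = 0.0120) and *Hsph1* (2.89, SE 0.386, edgeR adjusted p = 0.0123), while *Mt1* fell (−3.77, SE 0.633, edgeR adjusted p = 0.0300). In the same comparison 1 of 32 further immediate early genes rose, *Gadd45a* (2.18, SE 0.398, edgeR adjusted p = 0.0393), and 1 fell, *Egr2* (−2.25, SE 0.441, edgeR adjusted p = 0.0491). The share of all genes that passed was 2.02%. In VAT against chow SAT, *Ier3* rose (2.16, SE 0.357, edgeR adjusted p = 0.0172) and *Dusp2*, a phosphatase, fell (−1.86, SE 0.309, edgeR adjusted p = 0.0171). Of all genes, 5.0% passed there. Macrophage markers were higher and T cell markers lower in VAT, and their part in these values was not tested. In muscle against chow SAT, 0 of 32 further immediate early genes and 3 of 14 dissociation and heat shock genes passed, against 1.27% of all genes. The 3 were *Hspb1* (2.48), *Hspa1a* (2.31) and *Cebpd* (1.94), all higher in muscle.

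**Figure D4:**
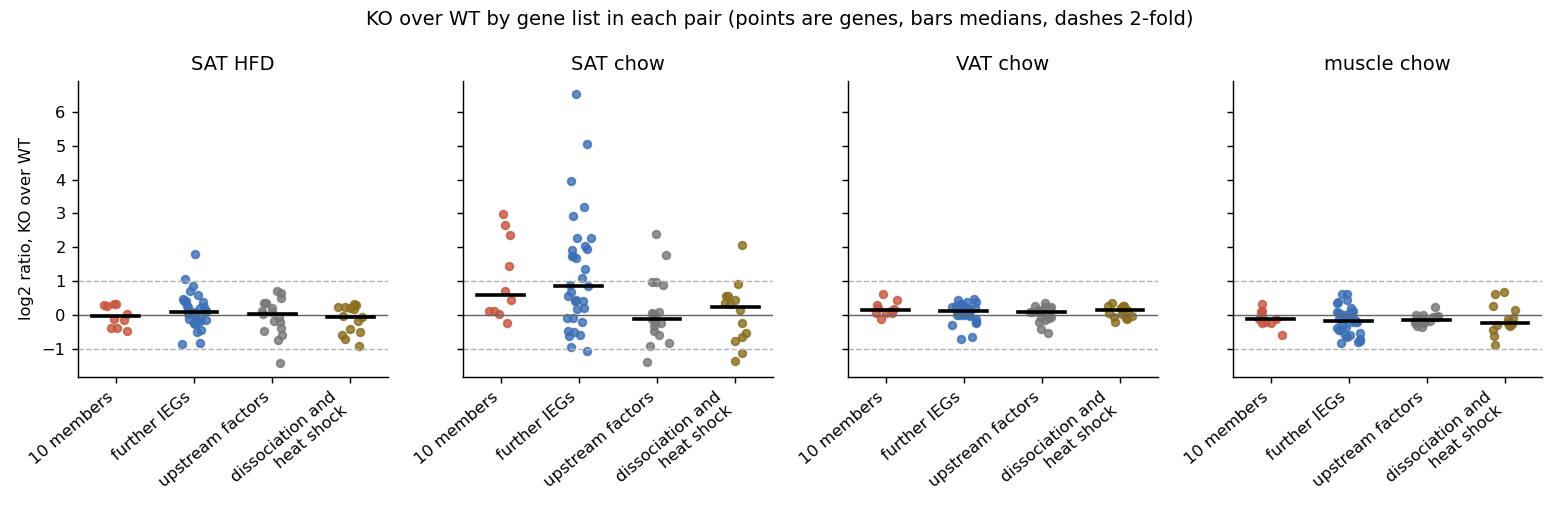
Log2 ratio of KO over WT (vertical axis) of the genes of 4 lists in the 4 pairs, each point a gene, bars at the median and dashed lines at 2-fold, 1 library per genotype. In chow SAT the medians are 0.58 for the 10 members and 0.84 for the further immediate early genes, and the upstream factors lie around a median of −0.13.

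The genes whose log2 CPM over the 8 libraries was most like the mean of the members, among 12358 genes averaging 50 counts or more, were *Errfi1* (Pearson's r = 0.987), *Klf4* (0.986), itself on the list of further immediate early genes, *Lrp1* (0.983), *Cd83* (0.983), *Coro2b* (0.978), *Ints6* (0.977), *Sphk1* (0.976) and *Furin* (0.973). *Errfi1*, a feedback inhibitor of the EGF receptor, was at 37.3 CPM in the chow SAT WT library and 176 in its KO partner, 292 and 314 in VAT and 73.5 to 85.2 in the other 4. These genes were chosen for this likeness, so their pattern is a description.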

How the data were processed

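Counts per gene in 8 libraries of GFP+ cells were taken as the authors deposited them, as whole-number counts with no normalization. The submitters' processing notes name HISAT2 2.0.5 and GRCm38, while the counting program, its use of strand and the annotation release are not given in the sources used here. The labels give a column kit for RNA and the study's methods Trizol. Columns were matched to samples by tissue, diet and genotype in their names. Counts were scaled by TMM over all genes (edgeR 4.0.16, R 4.3.3), and the 16971 genes averaging 10 counts or more entered a robust quasi-likelihood fit with pair and genotype, adjusted by Benjamini-Hochberg at 0.05. Within pairs, the same minimum was applied to the mean of the pair, and the prior count was 0.5. Library totals of 6214269 to 18855772 counts leave counting error small for the members, which had at least 769 counts. The libraries of a tissue differ in genotype, so p-values measure the spread between such libraries. Alternatives were DESeq2 1.42.0 (size factors, Wald test), library totals, other filters, no block, no genotype term, a prior count of 5, and each pair left out. Leaving out the chow SAT WT library and removing the trend on gene length were chosen after seeing the data. Named genes are all members, up to 4 of each further list per comparison by absolute log2 difference, and the 8 genes most like the members. The members and lists were chosen with earlier results of these data known. Fits and intervals were tested only on data simulated from the kind of counts they assume, with no library that stands apart. Those tests do not show how they behave on these libraries.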

Additional observations from a re-analysis of the deposited data

Results flagged for a closer look

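With TMM scaling, the KO over WT log2 ratio of 7 of the 10 members lay above 0 in one pair and below 0 in another. The counting intervals did not span 0. Such intervals are narrow at these counts, and the share of all genes that did the same is not given here. Each pair has 1 library per genotype, and the differences between pairs were not tested. Of the members called in chow SAT, *Fosb* was at 2.97 there, −0.46 in HFD SAT, 0.0446 in VAT and −0.59 in muscle. *Atf3* was at 2.35 in chow SAT, −0.15 in HFD SAT, 0.17 in VAT and −0.20 in muscle. *Egr1* was at 1.44 in chow SAT, −0.11 in HFD SAT, −0.12 in VAT and −0.13 in muscle. Of the others, *Junb* was at 0.71 in chow SAT, 0.43 in VAT and −0.23 in muscle, and *Jund* at 0.44 in chow SAT, 0.62 in VAT, −0.40 in HFD SAT and −0.23 in muscle. *Ier2* was at 0.10 in chow SAT, 0.12 in VAT, −0.40 in HFD SAT and −0.13 in muscle. *Dusp1* went the other way, at −0.25 in chow SAT against 0.30 in HFD SAT and 0.21 in VAT. For *Atf3* and *Dusp1*, no pair kept an interval below 0 under all 3 scalings, so their change of side depended on the scaling.

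All VAT values rest on the pair of libraries whose few *Tert* counts ran opposite to the labels. With library totals, *Egr1* and *Ier2* turned to 0.03 in muscle, *Fosb* in VAT had an interval that spanned 0 with DESeq2's size factors, and with the median of genes of like length subtracted, *Dusp1* turned to 0.19 in chow SAT and *Ier2* to −0.02 in VAT.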

How the results depend on the processing

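Each tissue and diet has 2 libraries, 1 per genotype. The number of the 10 members that passed in VAT against chow SAT was 1 with all libraries, 0 with library totals, 3 with no filter on low counts and 3 with DESeq2's Wald test, and it ranged from 0 to 2 when a pair or the chow SAT WT library was left out. In muscle against VAT it was 0, 3 with no filter, 4 by DESeq2 and 0 to 4 with a pair or that library left out, and in muscle against chow SAT 0 and 0 to 1. The cause was not tested. The other 52 counts of members kept their value or stayed within 1.5 times of it.

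Among all genes, the number that passed for KO against WT was 1, but 42 with no filter, 22 by DESeq2, 0 without the block and 0 to 2 with a pair left out. It was 0 for HFD against chow SAT, 317 with no filter, 355 by DESeq2 and 0 to 3 with a pair or library left out. In the same order with all libraries, no filter and DESeq2, it was 849, 2100 and 2384 for VAT against SAT, 215, 971 and 1013 for muscle against SAT, and 343, 1159 and 1242 for muscle against VAT. Without the genotype term the muscle comparisons gave 338 and 539, without the chow SAT WT library 331 and 1264, and without the chow SAT pair muscle against VAT gave 1258.

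Estimates that turned sign had an adjusted p above 0.05 on both sides. In HFD against chow SAT, DESeq2's size factors gave *Fos* 0.209, *Fosb* 0.117, *Junb* 0.0642 and *Egr1* 0.0107, library totals gave *Fos* 0.268, *Fosb* 0.164, *Junb* 0.121, *Egr1* 0.0641 and *Atf3* 0.00383, and *Nr4a1* was −0.0655 without the genotype term. With a pair or the chow SAT WT library left out, the range there was 0.121 to 0.203 for *Fos*, −1.13 to 0.252 for *Fosb*, −0.314 to 0.00151 for *Junb*, −0.732 to 0.000537 for *Egr1* and −0.630 to 0.449 for *Nr4a1*. In muscle against VAT, DESeq2's size factors gave *Jun* −0.0146 and *Nr4a1* −0.0532, and leaving out libraries moved *Nr4a1* between −0.0275 and 0.0217. For *Nr4a1* that range was −0.285 to 0.657 in VAT against chow SAT and −0.313 to 0.792 in muscle against chow SAT. For KO against WT, *Ier2* was 0.0358 with library totals, and leaving out a pair gave −0.341 to 0.755 for *Fosb*, −0.0391 to 0.281 for *Jund*, −0.124 to 0.412 for *Egr1*, −0.0641 to 0.746 for *Atf3*, −0.140 to 0.0321 for *Ier2* and −0.0188 to 0.159 for *Dusp1*.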
